A study of Mus musculus with 16 samples.

Results

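RNA levels of mouse embryonic stem (ES) cells were compared between 0 h and 40 h of release from the maintenance medium serum/LIF+2i. The comparison takes every expressed gene and the 4 libraries of these groups, 2 at each time, out of 16 libraries in the series. Of 27179 genes in the count table, 14288 passed a filter on low counts and were tested. Cells at 0 h had been adapted from serum with leukaemia inhibitory factor (LIF) and were held on gelatin in knockout DMEM with 10% fetal bovine serum, LIF and the pair of inhibitors called 2i. These were 3 uM CHIR99021, which inhibits GSK3, and 1 uM PD0325901, which inhibits MEK. Cells at 40 h had been washed and moved to a mixture of DMEM and Neurobasal with the N-2 and B-27 supplements and 2 mM glutamine, without serum, LIF or inhibitors. Serum, LIF, both inhibitors and the basal medium changed at once, so their effects cannot be told apart. The comparison group from 2i/LIF, a serum-free medium, had 2 libraries at 0 h and 2 at 40 h. Per the protocol text, those cells differed in basal medium as well as in serum. The labels do not name the ES line or say that replicates were separate cultures, so p-values measure only the spread between libraries, which may be technical.

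Naive ES cells correspond to the epiblast of the blastocyst before implantation. LIF acts through STAT3, GSK3 inhibition lets beta-catenin act on its targets, and MEK inhibition blocks ERK signalling, and together they hold a network of transcription factors that includes Klf4, Esrrb and Tfcp2l1. After release, cells pass through a formative state, in which the genes of the post-implantation epiblast come on and the cells become able to respond to lineage signals. DNA methylation rises, metabolism shifts and the cells polarise during the same transition in the embryo.

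Library totals were 6946416 and 6852533 counts at 0 h and 11142744 and 9926274 at 40 h, so low levels were measured more finely at 40 h. A floor of 3 counts in a library corresponds to 0.44 CPM (counts per 1000000, scaled by TMM) at 0 h and to 0.26 and 0.29 CPM at 40 h. Ribosomal RNA took 1.086% and 0.599% of the counts at 0 h and 0.462% and 0.429% at 40 h, and the first principal component of the 4 libraries, which separated the times, held 95.0% of the variance. Reads carried no molecular identifiers, and floors rest on counts alone. The standard errors given below come from the fit and take in the spread between libraries. The labelled cell type was checked on 6 markers of ES and epiblast cells, which summed to 1995 and 1893 CPM at 0 h and to 1855 and 1814 CPM at 40 h. Pou5f1, the central pluripotency factor, had 702 and 712 CPM at 0 h and 674 and 678 CPM at 40 h, a change that did not pass the test (adjusted p = 0.0831). The 8 fibroblast markers summed to 7.64 and 8.23 CPM at 0 h and 14.5 and 12.8 CPM at 40 h, with Col3a1 and Postn at no count. In a longer list of 12 such genes 6 were tested, of which 4 rose and 1 fell, and 2 were at the floor at 1 of the times. The 10 narrow trophoblast markers summed to 14.1 and 12.9 CPM at 0 h and 6.89 and 8.42 CPM at 40 h, with Elf5, Tpbpa and Prl3d1 at no count. A wider list of 14, with factors such as Tead4 and Tfap2c, summed to 158.5 and 156.4 CPM at 0 h and 13.2 and 14.3 CPM at 40 h. The part of these cell types in the results below was not tested.

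Levels below are CPM in replicate 1 and then replicate 2. Changes are log2 fold changes from 0 h to 40 h with their standard errors (SE), fitted with edgeR's quasi-likelihood test over all 16 libraries. "Rose" and "fell" are used for a Benjamini-Hochberg adjusted p under 0.05. The 212 named genes counted here leave out cell type markers named without a size of change. In all 212 the 0 h and 40 h libraries did not overlap, as in 83.7% of all genes tested. Of the 212, 211 passed the test, with 4.96e-05 as the largest adjusted p (edgeR). Most were chosen as called genes with large changes, so the lack of overlap and the small p-values follow from that choice. Whether counting used strand is not given in the sources used here. Exons of 21 of the named genes overlap a neighbouring tested gene, and their values are uncertain: 2210409E12Rik, Aire, Aldh1l2, Dnmt3l, Epha1, Fgfr2, Fn1, Gli1, Gss, Ina, Lamp1, Lrrc34, Lss, Mkrn1, Ncl, Nefm, Nkx6-2, Pdha1, Psph, Slc7a7 and Tapbp.

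By 40 h, 10080 genes (70.5%) had changed, 5043 higher (35.3%) and 5037 lower (35.3%). By at least 2-fold, 2402 genes were gained (16.8%) and 1810 lost (12.7%). With a mean of at least 5 CPM over all libraries required, the numbers were 1149 and 1148. A gain of 4-fold or more was fitted for 1321 genes and a loss of that size for 793, and for 16-fold the numbers were 445 and 240. Of the gained genes, 602 were at or under the floor in both 0 h libraries, and 176 of the lost genes were at or under it in both 40 h libraries. These could pass the filter only through libraries of other groups in the series, such as the one in which they were high. Their fitted changes depend on the prior count. Per length, the gained genes had a median of 0.50 RPKM (CPM per kilobase of gene length) at 0 h and 2.78 RPKM at 40 h. The lost genes had a median of 7.58 RPKM at 0 h and 1.60 RPKM at 40 h.

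**Figure D1:**
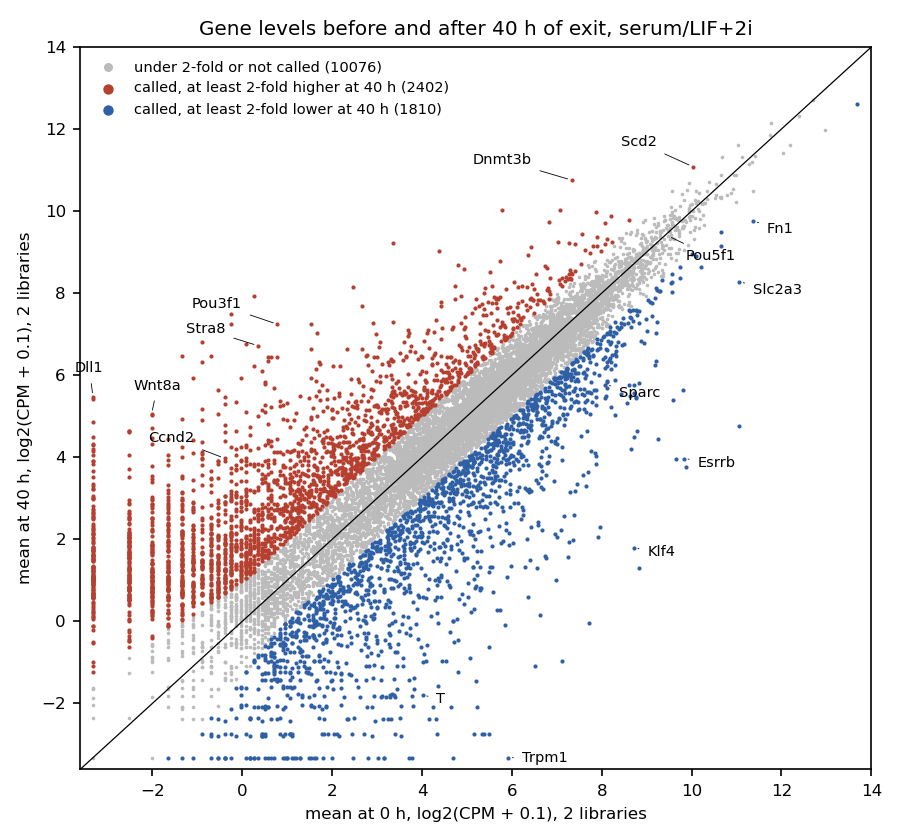
Mean level of each of the 14288 tested genes at 0 h (x axis) and 40 h (y axis) on the log2(CPM + 0.1) scale, with the line of equal levels. Red points are the 2402 genes that were called and at least 2-fold higher at 40 h, blue points the 1810 that were called and at least 2-fold lower, and grey points all others. The red points begin at the left edge, where genes had 0 or few counts at 0 h.

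The largest falls among genes with more than 3 counts in every library and at least 20 CPM at 0 h took in naive transcription factors and an adhesion molecule. Jam2, a junctional adhesion molecule, went from 456 and 454 CPM to 2.59 and 2.13 CPM, a log2 change of -7.57 ± 0.083. Klf4, a naive factor, fell from 421 and 419 CPM to 3.62 and 3.1 CPM (-6.95 ± 0.082), or 124-fold. Both 40 h libraries of Jam2 and Klf4 were at a few CPM or less. Tfcp2l1, another naive factor, stood at 2129.7 and 2116 CPM and then 26.5 and 27.7 CPM (-6.29 ± 0.050). Esrrb, a nuclear receptor of the same network, went from 915 and 904 CPM to 15.4 and 15.7 CPM (-5.87 ± 0.053). Ckb, the brain-type creatine kinase that buffers ATP, had 931 and 950.4 CPM at 0 h and ended at 12 and 15.1 CPM (-6.13 ± 0.057). Other genes chosen by size of fall were the small GTPase gene Mras (-6.11 ± 0.18), the actin-binding protein gene Ablim1 (-6.04 ± 0.12), the autophagy receptor gene Calcoco2 (-5.9 ± 0.087), Lrrc34 (-6.61 ± 0.15), AA467197 (-6.31 ± 0.22) and 2210409E12Rik (-8.34 ± 0.16).

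The largest rises by the same rule included receptors, transcription factors and secreted proteins. Cntfr, the receptor subunit for ciliary neurotrophic factor, rose from 0.88 and 0.59 CPM to 178 and 183 CPM, a log2 change of 7.91 ± 0.15. The membrane-bound transcription factor gene Myrf had 1.03 and 1.18 CPM at 0 h and 253 and 239 CPM at 40 h (7.78 ± 0.12). Prph encodes peripherin, an intermediate filament of nerve cells, and its level went from 0.88 and 0.59 CPM to 151.2 and 154 CPM (7.67 ± 0.32). Pcdh1, a protocadherin, moved from 0.59 and 1.32 CPM to 113 and 103 CPM (6.8 ± 0.16). The POU factor gene Pou3f1 rose from 1.47 and 1.76 CPM to 162 and 141 CPM (6.54 ± 0.18). All of these were under 2 CPM in both 0 h libraries and above 100 CPM in both 40 h libraries. Pim2, a serine/threonine kinase that promotes survival, started at 11.3 and 9.11 CPM and reached 603 and 592 CPM (5.87 ± 0.072). Others were the retinoid-induced meiotic gene Stra8 (6.47 ± 0.19), the ERK phosphatase gene Dusp4 (6.08 ± 0.20), Serpinf1 (6.05 ± 0.18), the ephrin gene Efnb2 (5.95 ± 0.16) and the zinc finger gene Zfp423 (5.88 ± 0.15).

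A gene was described as switched on where both 0 h libraries held at most 3 counts and the 40 h mean was at least 2 CPM, and as switched off in the reverse case. By this rule 364 genes were switched on and 91 off. With no count allowed in place of 3 the numbers were 86 and 19, and with 10 counts allowed 869 and 249. Vrtn, which is known for its part in vertebral number, had 3 and 1 counts at 0 h and 88.9 and 88.6 CPM at 40 h, at least 201-fold higher when 0 h is set to the floor. The Notch ligand gene Dll1 had no count at 0 h and 46.8 and 41.8 CPM at 40 h (at least 100.5-fold). Car4, a membrane-bound carbonic anhydrase, also had no count and then 40.8 and 44.4 CPM (at least 96.6-fold). Wnt8a, a Wnt ligand gene, reached 29.6 and 36.4 CPM (at least 74.9-fold). The collagen receptor gene Mrc2 reached 33.3 and 38.5 CPM (at least 81.4-fold) and the zinc finger gene Zfp467 34.9 and 30.7 CPM (at least 74.4-fold). Among genes switched off, the channel gene Trpm1 fell from 60.8 and 60.1 CPM to no count (at least 220.3-fold lower). The Wnt target gene Sp5 went from 48.8 and 41.6 CPM to 0 and 0.097 CPM (at least 165-fold). The interferon-induced gene Xaf1 (41.4 CPM in both libraries at 0 h), the homeobox gene Crxos (38.3 and 41.7 CPM), the dimethylglycine dehydrogenase gene Dmgdh (31 and 40.1 CPM) and Lrrc31 (31.6 and 42.6 CPM) each had 0 to 2 counts per library at 40 h.

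Measured by the share of the library, the largest gains among called genes were led by the de novo DNA methyltransferase gene Dnmt3b, which went from 167 and 154 CPM to 1771 and 1689 CPM (3.43 ± 0.043). Its relative Dnmt3a rose from 54.8 and 54.5 CPM to 1053 and 1037 CPM (4.26 ± 0.046). Scd2, a fatty acid desaturase, rose from 970.5 and 1115 CPM to 2164 and 2175 CPM (1.06 ± 0.039). Ncl, the nucleolar protein nucleolin, went from 3544 and 3385 CPM to 4458 and 4607 CPM, a small fold (0.39 ± 0.030) on a high level. Grb10, an imprinted adaptor of the insulin receptor, reached 1037 and 1049 CPM from 133 and 137 CPM (2.95 ± 0.070). The ubiquitin ligase genes Nedd4 (0.58 ± 0.031) and Mkrn1 (2.11 ± 0.039) and the translation factor gene Eif4g2 (0.62 ± 0.032) completed this group. The largest loss was of the mitochondrially encoded COX1, a subunit of cytochrome oxidase, from 13006 and 13417 CPM to 6054 and 6389.5 CPM (-1.09 ± 0.028). ND1 (-0.58 ± 0.034) and CYTB (-0.60 ± 0.031), from the same genome, were also among the losses by share. Slc2a3, a glucose transporter, fell from 2100.0 and 2174 CPM to 303 and 317 CPM (-2.79 ± 0.036). Fibronectin Fn1, of the extracellular matrix, fell from 2596 and 2704 CPM to 886 and 848 CPM (-1.61 ± 0.033). Asns, which makes asparagine, fell from 1592 and 1634 CPM to 563 and 581 CPM (-1.49 ± 0.037).

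**Figure D2:**
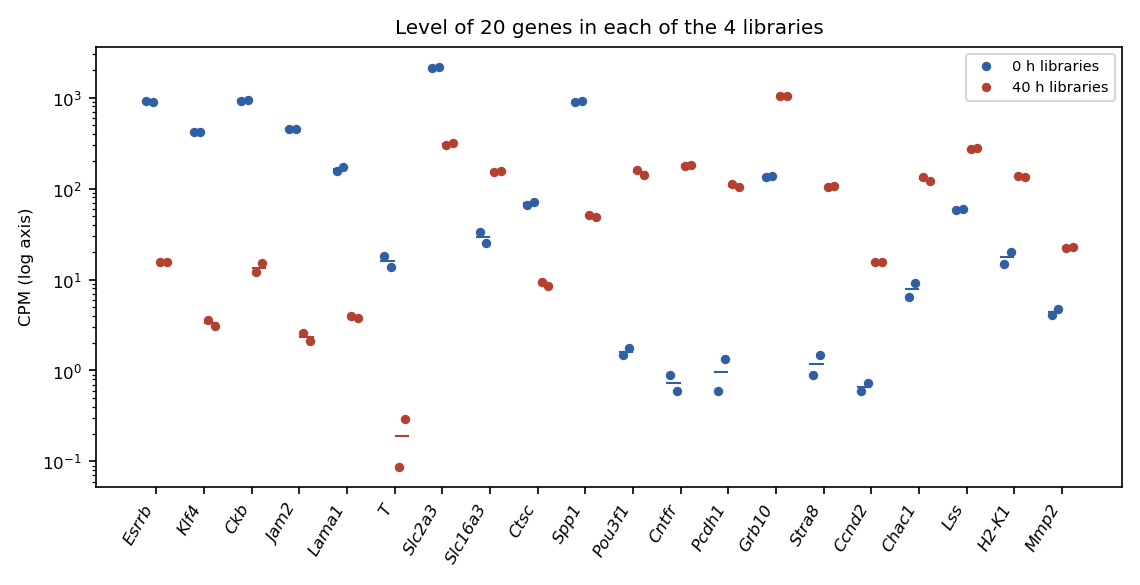
Level in CPM (log axis) of 20 genes named in the text in each 0 h library (blue points) and each 40 h library (red points), with a short line at the mean of the 2 libraries. The points of the 2 times do not overlap in any of the 20 genes, with Slc2a3 at 2100.0 and 2174 CPM and then 303 and 317 CPM and Ccnd2 at 0.59 and 0.73 CPM and then 15.6 and 15.7 CPM.

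Functional classes were described with 90 gene lists that held 2864 distinct tested genes, read against the shares over all genes tested: 35.3% higher, 35.3% lower, 16.8% gained and 12.7% lost. The median log2 change over all genes tested was -0.0032. With 35.3% of all genes higher and 35.3% lower, members in both directions do not by themselves set a list apart. Some lists share members, so their counts are not independent of each other. Among lists with at least 9 tested genes, those with more than 55% gained were the 2-cell-like genes (100%, with 14 of 15 at the floor), formative factors (88.9%), retinoic acid genes (72.2%), amino acid response genes (70%), antigen presentation genes (63.6%), Sox genes (61.5%), germline genes (56.7%), cation channels (56.1%) and imprinted genes (55.6%). Between 50% and 55% were ERK target genes (55.0%), plasma membrane amino acid transporters (53.6%) and cholesterol synthesis genes (52.0%). Lists with at least 50% lost were naive factors (92.9%), trophoblast markers (66.7%), primitive streak and mesoderm regulators (61.5%), interferon genes (60%), serpins (55.6%) and LIF genes (50%). DNA replication, mitosis, ribosome biogenesis and cytosolic ribosomal protein genes held called changes but none of 2-fold.

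**Figure D3:**
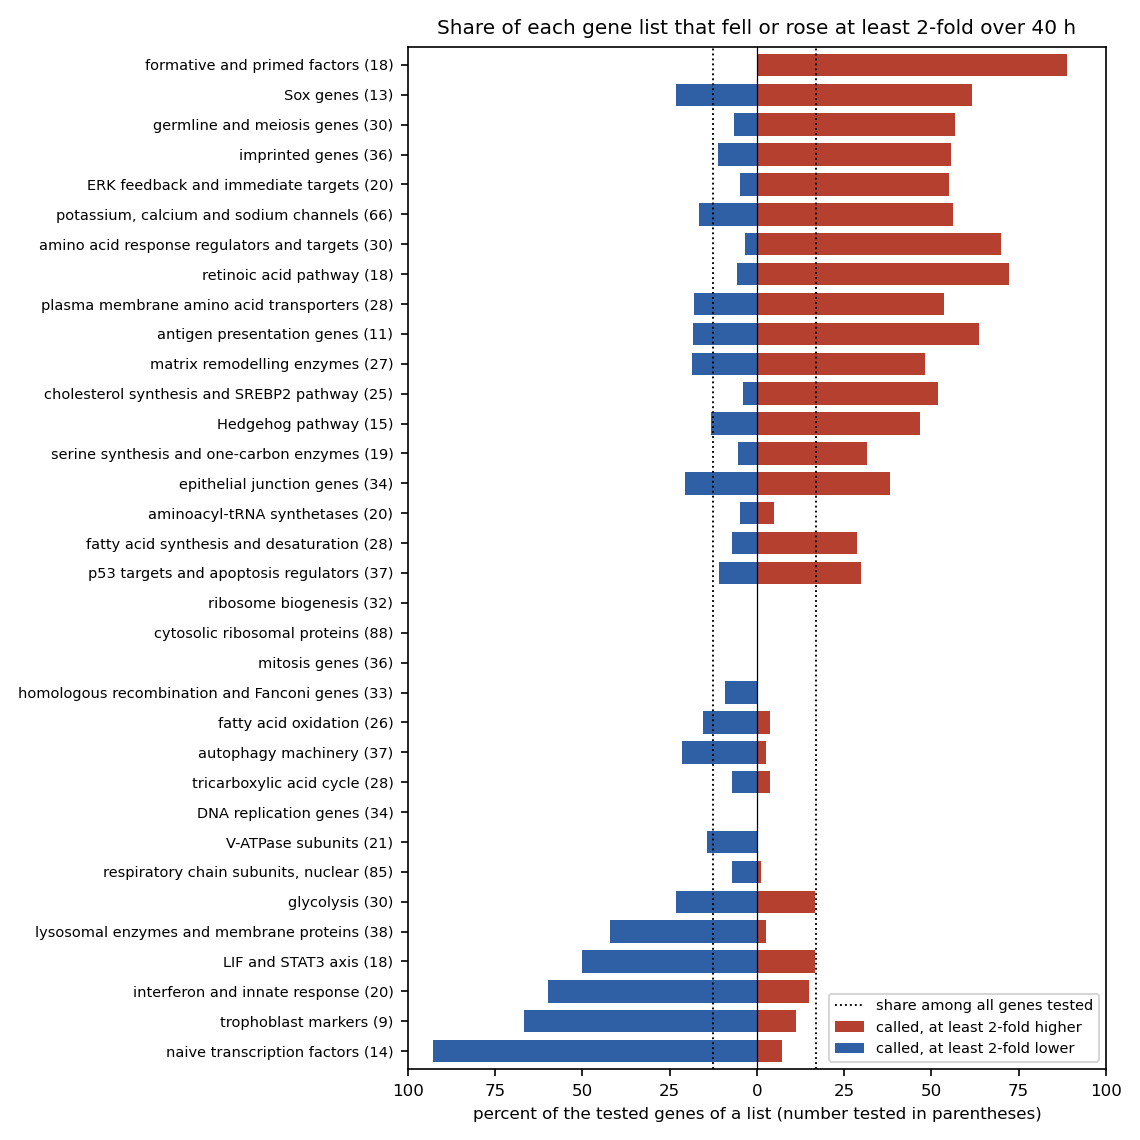
Percent of the tested genes of each of 34 of the 90 lists that were called and at least 2-fold higher (red, right) or at least 2-fold lower (blue, left) at 40 h, ordered by the list's median change, with the number tested in parentheses. The 2-cell-like list, with 100% higher and the highest median, is left out. Dotted lines mark the shares over all genes tested, 16.8% higher and 12.7% lower; the naive factors at the bottom reach 92.9% lower and the formative factors at the top 88.9% higher.

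Transcription factors of pluripotency split by the state in which they act. Of 14 naive factors, 13 fell and 1 rose, with a median log2 change of -4.9. Prdm14, which represses DNA methylation and FGF signalling in naive cells, fell from 91.7 and 90.9 CPM to 0.26 and 0.48 CPM (-7.91 ± 0.18). The exception was Gbx2, a homeobox factor, which rose from 28.8 and 17.9 CPM to 90.7 and 84.6 CPM (1.91 ± 0.092). Among 18 formative and primed factors 17 rose and 1 fell, with a median of 3.28, and 2 of them were at the floor at 0 h. Tcf15, a bHLH factor, went from 1.47 and 1.32 CPM to 29 and 26.7 CPM (4.31 ± 0.23). The fall was of the ETS factor Etv5, from 282 and 289 CPM to 229.7 and 225 CPM (-0.33 ± 0.041). Factors used in both states moved in both directions, with 7 of 13 higher and 5 lower. Lin28a, which blocks let-7 microRNA maturation, rose from 118 and 108 CPM to 848 and 852 CPM (2.91 ± 0.042). Utf1, a chromatin factor of ES cells, rose from 45.7 and 46.1 CPM to 384 and 347 CPM (2.99 ± 0.064). Sox2, the partner of Pou5f1, fell from 422 and 384 CPM to 152 and 137 CPM (-1.48 ± 0.045).

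Most other Sox genes that changed rose. Of 13 tested Sox genes, of 19 in the table, 8 rose and 3 fell. The median of the list was 2.86, or 1.97 with the bound in place of the fit for the 4 genes at the floor. Sox3, a factor of the early neural plate, had 1 count in each 0 h library and 21.7 and 22.7 CPM at 40 h, at least 50.4-fold higher. Sox1, another neural factor, rose from 3.82 and 4.85 CPM to 49.9 and 44.5 CPM (3.44 ± 0.15). Sox4 went from 3.09 and 3.52 CPM to 57.7 and 51.5 CPM (4.04 ± 0.15). Forkhead genes rose in 13 of 22 cases and fell in 7, and the largest change was of Foxp1, from 4.55 and 7.93 CPM to 205 CPM in both libraries (5.03 ± 0.094). Of 39 Hox genes, 17 passed the filter and 10 of these were at the floor at 1 of the times. Of the 17, 8 rose (47.1%) and 6 fell (35.3%), each by at least 2-fold. Hoxb1, at the early end of its cluster, had no count at 0 h and 18.8 and 20.1 CPM at 40 h (at least 44.1-fold higher). Its neighbour Hoxb2 went from none to 8.1 and 7.84 CPM (at least 18.1-fold). Hoxa5 went from 0 and 0.15 CPM to 7.58 and 4.74 CPM (at least 14-fold). Hoxc12, from the late end of its cluster, had 8.67 and 8.81 CPM at 0 h and no count at 40 h (at least 31.9-fold lower).

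Most regulators of the primitive streak and of trophoblast that passed the test fell. In bulk RNA, fewer cells of a type and less RNA per cell cannot be told apart. T, the mesoderm factor brachyury, had 18.4 and 13.8 CPM at 0 h and 0.086 and 0.29 CPM at 40 h, at least 58.6-fold lower. The caudal factor Cdx1 fell from 54.7 and 46.7 CPM to 0.95 and 1.26 CPM (-5.51 ± 0.18). Cdx2, a caudal factor that also specifies trophoblast, fell from 8.67 and 7.2 CPM to 0.60 and 0.58 CPM (-3.71 ± 0.36). Of 13 tested streak and mesoderm regulators 8 fell and 5 rose, among them Wnt8a given above, and 7 were at the floor at 1 of the times. Of 9 tested trophoblast markers, of 14 in the table, 6 fell and 1 rose, and the median was -3.71, or -3.65 with the bound in place of the fit for the 2 genes at the floor. Tfap2c, a factor of trophoblast and germ cells, went from 56.4 and 54.3 CPM to 3.96 and 3.58 CPM (-3.87 ± 0.14). Tead4, a partner of YAP in trophoblast, fell from 59.5 and 59.8 CPM to 1.55 and 2.52 CPM (-4.88 ± 0.16). Tfap2a fell from 24.4 and 26.9 CPM to 1.03 and 0.77 CPM (-4.79 ± 0.23). Elf5, a defining trophoblast gene, had no count in any of the 4 libraries.

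Neural regulators moved both ways, and 14 of 29 were tested, of which 7 rose and 4 fell. Pax6, a neuroectoderm factor, had 1 and 0 counts at 0 h and 5.6 and 5.9 CPM at 40 h (at least 13.1-fold higher). Irx3, which patterns the neural tube, reached 11.7 and 9.29 CPM (at least 23.8-fold). Nkx6-2, another patterning factor, fell from 16.3 and 13.4 CPM to 0.60 and 0.68 CPM (-4.51 ± 0.29). The POU factor gene Pou3f2 fell from 5.0 and 2.79 CPM to 0.34 and 0.19 CPM (-3.76 ± 0.52).

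Genes that mark primitive endoderm were divided, with 5 of 11 tested members higher and 3 lower. Lama1, a laminin chain of basement membrane, fell from 156 and 173 CPM to 3.96 and 3.77 CPM (-5.4 ± 0.11). The matrix protein gene Sparc fell from 268 and 273 CPM to 53.1 and 56 CPM (-2.31 ± 0.051). Lrp2, the endocytic receptor megalin, rose from 21 and 20.6 CPM to 516 and 519 CPM (4.64 ± 0.059). Of the transcription factors that define primitive endoderm, Gata4 had 2.35 and 2.5 CPM at 0 h (16 and 17 counts). At 40 h, in deeper libraries, Gata4 had 3.45 and 3.97 CPM (40 and 41 counts). Gata6 had at most 9 counts, Sox17 at most 5 and Sox7 at most 9 in any of the 4 libraries.

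Retinoic acid is made from retinol, binds receptors of the RAR and RXR families and is a known inducer of Stra8 and of Hox genes at the early end of the clusters. Of 18 tested genes of this pathway, of 20 in the table, 15 rose and 1 fell, with a median log2 change of 1.39, and 5 were at the floor at 1 of the times. Rarg, a receptor gene, went from 27.3 and 28.5 CPM to 412 and 409 CPM (3.88 ± 0.056). Rxrg, a gene of the partner receptors, had no count at 0 h and 17.9 and 22.2 CPM at 40 h (at least 45.5-fold higher). The retinoid-binding protein gene Crabp2 reached 29.8 and 30.3 CPM (at least 68.2-fold). The fall was of Aldh1a2, the enzyme that makes retinoic acid, from 6.32 and 6.46 CPM to 2.33 and 3.58 CPM (-1.13 ± 0.25).

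Germline and meiosis genes rose in 21 of 30 tested cases and fell in 2 (33 in the table), with a median of 1.9. Promoters of germline genes are known for a CACGTG box, which is bound by repressor complexes that contain MAX and MGA. In the 250 bases before RefSeq gene starts (GRCm38.p6), CACGTG was present in 15 of 34 promoters of the tested list members (44.1%). These promoters belonged to 12 of the 28 members with a promoter. CACGTG was in 8.32% of all 13892 promoters used, which cover 10940 of the 14288 genes tested. The word reads the same on both strands. It was also in 11 of 35 promoters of the lysosomal list (31.4%), most of whose members fell, and in 6.94% of promoters of all gained genes. For Mael and Taf7l, members that rose, the box is shown in capitals with 20 bases on each side.

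Mael: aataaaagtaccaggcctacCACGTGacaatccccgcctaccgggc

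Taf7l: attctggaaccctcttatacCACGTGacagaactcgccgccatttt

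The Mael stretch is chr1:166238942-166238987, minus strand, with the box starting 223 bases before the gene start, and the Taf7l stretch is chrX:134476514-134476559, minus strand, 49 bases before it. A match is a description of the letters and does not show binding. Mael, which protects germ cells from transposons, went from 1.91 and 1.62 CPM to 38.4 and 39 CPM (4.44 ± 0.19). Taf7l, a germ cell subunit of TFIID, had 0.15 and 0.29 CPM at 0 h and 19.9 and 23.1 CPM at 40 h (at least 48.8-fold higher). Stra8, which starts meiosis, stood at 0.88 and 1.47 CPM and then 105 and 106 CPM. Prdm1, which specifies primordial germ cells, fell from 12.9 and 9.69 CPM to 1.55 and 2.03 CPM (-2.66 ± 0.24).

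Genes of the rare 2-cell-like state, which resembles the embryo at genome activation, were at or near the floor at 0 h and detected at 40 h. All 15 tested members, of 17 in the table, rose. Of these, 14 were at the floor in both 0 h libraries and could pass the filter only through libraries of other groups. Setting these 14 to their bound gave a median log2 change of 3.07 in place of 3.98. Zscan4d, of a zinc finger family that marks this state, had 0.15 and 0.44 CPM at 0 h and 18.8 and 19 CPM at 40 h (at least 42.8-fold higher). Zscan4c had no count and then 10.3 and 8.03 CPM (at least 20.9-fold). Zscan4e reached 8.1 and 7.26 CPM (at least 17.4-fold). Zscan4a stood at 0.73 CPM in both libraries and then 11.2 and 13.2 CPM (4.02 ± 0.32). The Zscan4 genes are near-identical copies, and how reads were divided among them is uncertain.

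Imprinted genes, which are expressed from 1 parental allele, rose in 24 of 36 tested cases and fell in 5, with a median of 1.79. Besides Grb10, the cell cycle inhibitor gene Cdkn1c rose from 1.91 and 0.88 CPM to 80.1 and 83.5 CPM (5.86 ± 0.17). Magel2 had 1 count in each 0 h library and 7.33 and 8.9 CPM at 40 h (at least 18.4-fold higher). Plagl1, a zinc finger regulator of other imprinted genes, moved against the list, from 152 and 158 CPM to 3.45 and 3.97 CPM (-5.39 ± 0.11). Counts do not separate the parental alleles.

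The medium change removed inhibitors of ERK signalling and of GSK3, and LIF. Of 20 tested ERK targets and feedback genes, 15 rose and 3 fell, with a median of 1.52. Spry4, which dampens receptor signalling to ERK, went from 0.15 and 0.59 CPM to 60.2 and 61 CPM (7.31 ± 0.22). The ERK phosphatase gene Dusp6 rose from 2.5 and 3.08 CPM to 158 and 146 CPM (5.76 ± 0.12). Myc, a growth factor-induced transcription factor, rose from 6.91 and 5.58 CPM to 99.3 and 100.8 CPM (4.0 ± 0.11). In the FGF list 8 of 18 rose and 7 fell, and 5 were at the floor at 1 of the times. Fgf4, the ligand that drives ERK in ES cells, fell from 318 and 321 CPM to 138 and 125 CPM (-1.28 ± 0.044). The receptor gene Fgfr2 rose from 1.62 CPM in both libraries to 20.5 and 22.7 CPM (3.73 ± 0.23). In the LIF and STAT3 list, which shares members such as Klf4, Tfcp2l1 and Gbx2 with the naive factors, 11 of 18 fell and 3 rose. Socs3, the feedback inhibitor of STAT3, went from 67.4 and 58.9 CPM to 2.33 and 2.61 CPM (-4.67 ± 0.15). Bcl3, another STAT3 target, fell from 50.7 and 45.4 CPM to 1.72 and 1.35 CPM (-4.94 ± 0.17). In the Wnt list 12 of 34 were higher (35.3%) and 16 lower (47.1%), against 35.3% each way over all genes tested. Its secreted inhibitor gene Notum fell from 95.5 and 92.2 CPM to 2.41 and 2.32 CPM (-5.3 ± 0.12).

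Other developmental pathways held opposite changes among their members. In the Nodal and activin list 7 of 20 rose and 12 fell. Lefty1, a secreted Nodal antagonist, went from 7.05 and 6.61 CPM to 76.5 and 75.3 CPM (3.47 ± 0.12). Skil, a SMAD corepressor, rose from 63.6 and 67.9 CPM to 317 and 306 CPM (2.24 ± 0.051). Pcsk6, which cleaves the Nodal precursor, fell from 143 and 132 CPM to 20.3 and 17.8 CPM (-2.85 ± 0.079). In the BMP list 9 of 19 rose and 9 fell. Id4, of the Id inhibitors that BMP induces, fell from 14.1 CPM in both libraries to 0.34 and 0.097 CPM (-5.86 ± 0.35). The ligand gene Bmp4 fell from 7.49 and 6.9 CPM to 1.03 and 0.97 CPM (-2.82 ± 0.30). Notch genes rose in 14 of 25 cases and fell in 9. Beside the ligand gene Dll1, the regulator gene Dtx4 rose from 1.32 and 2.5 CPM to 40.2 and 40.1 CPM (4.38 ± 0.19). The receptor gene Notch4 fell from 12 and 12.8 CPM to 1.21 and 1.94 CPM (-2.99 ± 0.24).

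Hedgehog signalling acts through Smo on the Gli factors, and 9 of 15 tested members rose and 3 fell. Smo went from 13.7 and 17.8 CPM to 87.2 and 88.5 CPM (2.48 ± 0.095). Gli1, both a target and a factor, rose from 4.7 and 3.82 CPM to 20.5 and 18.1 CPM (2.18 ± 0.18). Gli2 fell from 115 and 109 CPM to 33 and 34.6 CPM (-1.73 ± 0.067). Insulin and IGF genes rose in 14 of 25 cases and fell in 5. Igfbp3, a carrier of IGF, went from 4.41 and 4.55 CPM to 18.2 and 19.8 CPM (2.08 ± 0.18).

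Most tested interferon and innate immune genes fell, and most tested members of an antigen presentation list rose. Of 20 tested interferon genes, of 30 in the table, 15 fell and 3 rose. The median was -1.77, or -1.43 with the bound in place of the fit for the 5 genes at the floor. Ifitm1, which blocks virus entry, fell from 178 and 203 CPM to 11.8 and 11.9 CPM (-4.0 ± 0.079). Trim25, the ubiquitin ligase of the RIG-I sensor, went from 319 and 314 CPM to 61.5 and 56.5 CPM (-2.42 ± 0.051). Oas1a, a sensor of double-stranded RNA, fell from 31 and 28.3 CPM to 1.55 and 1.45 CPM (-4.29 ± 0.19). In the antigen presentation list 8 of 11 tested genes, of 16 in the table, rose and 2 fell. The list was not limited to class I genes, and an H2-named member encodes a steroid dehydrogenase. The class I heavy chain gene H2-K1 rose from 14.7 and 20.3 CPM to 139 and 134 CPM (2.96 ± 0.087), though H2 genes share sequence and the division of reads among them is uncertain. The immunoproteasome gene Psmb10 rose from 9.7 and 12.8 CPM to 27 and 27.6 CPM (1.28 ± 0.13). B2m, the light chain that class I molecules need at the surface, fell from 26 and 27 CPM to 10.1 and 10.2 CPM (-1.39 ± 0.13). Tapbp, which helps to load peptides, fell from 56.4 and 63.7 CPM to 14.5 and 16.5 CPM (-1.96 ± 0.097).

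Junction and adhesion genes lost some members and gained others. Of 34 epithelial junction genes 21 rose and 11 fell. Cdh1, the E-cadherin gene, went from 551 and 563 CPM to 636 and 609 CPM, a small change (0.16 ± 0.036). The epithelial splicing factor gene Esrp1 rose from 1.47 and 1.76 CPM to 89.2 and 85.5 CPM (5.74 ± 0.16). The desmosomal cadherin gene Dsg2 fell from 228 and 231 CPM to 16.2 and 17.9 CPM (-3.75 ± 0.068). Gjb5, a connexin of gap junctions, fell from 33.4 and 31.1 CPM to 1.47 and 2.13 CPM (-4.17 ± 0.18). Itga3, an integrin that binds laminin, rose from 38.5 and 40.1 CPM to 157 and 151.3 CPM (1.97 ± 0.065), while 9 of 22 integrins rose and 5 fell. Cd9, a tetraspanin, fell from 368 and 389.6 CPM to 40.5 and 38.7 CPM (-3.26 ± 0.055). Zeb2, a repressor of E-cadherin, rose from 0.15 and 0.73 CPM to 10.00 and 13.5 CPM (4.68 ± 0.37) in a list of mesenchymal regulators in which 8 of 14 fell and 4 rose.

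Matrix genes were also divided, 12 of 29 higher and 14 lower. Spp1, the secreted phosphoprotein osteopontin, went from 886 and 918 CPM to 51.9 and 48.4 CPM (-4.17 ± 0.045). The basement membrane linker gene Nid1 fell from 612 and 605 CPM to 22.8 and 20.3 CPM (-4.81 ± 0.053). The fibrillin gene Fbn2 rose from 0.88 and 0.59 CPM to 18.8 and 19 CPM (4.65 ± 0.28). Enzymes that remodel matrix rose in 15 of 27 cases and fell in 7. Mmp2, a gelatinase, had 4.11 and 4.7 CPM and then 22.5 and 22.8 CPM (2.36 ± 0.18). Mmp9, the other gelatinase, had 0.59 and 0.88 CPM and then 13.3 and 13.2 CPM (4.14 ± 0.31). Their inhibitor gene Timp1 fell from 49.4 and 45.5 CPM to 13.6 CPM in both libraries (-1.8 ± 0.11). The collagen chaperone gene Serpinh1 rose from 84.5 and 89.7 CPM to 288 and 308 CPM (1.77 ± 0.059). Targets of YAP and SRF fell in 15 of 29 cases and rose in 11. The smooth muscle gene Cnn1, of that list, was at the floor at 0 h and had 5.08 and 5.03 CPM at 40 h (at least 11.5-fold higher).

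Genes of excitable cells and of axonal transport included large rises. Of 138 potassium, calcium and sodium channel genes, 66 were tested, 40 rose and 14 fell, and 18 were at the floor at 1 of the times. The median was 1.49, or 1.23 with those genes at their bound. The auxiliary calcium channel gene Cacng7 rose from 2.79 CPM in both libraries to 61.1 and 60.1 CPM (4.43 ± 0.15). The pore subunit gene Cacna1b had 1 and 0 counts at 0 h and 16.5 and 16.6 CPM at 40 h (at least 37.6-fold higher). Kinesins are motors of mitosis and of transport, and 12 of 37 rose and 17 fell. Kif1a, a kinesin of axonal transport, went from 1.18 and 1.47 CPM to 40.8 and 36.4 CPM (4.85 ± 0.21). Kif5c, another transport kinesin, rose from 10.9 and 9.69 CPM to 47.5 and 46.4 CPM (2.19 ± 0.12). Tuba1a, a tubulin of young neurons, rose from 17.8 and 21.4 CPM to 93.9 and 93.4 CPM (2.26 ± 0.088). The neuronal filament gene Ina rose from 2.94 and 3.52 CPM to 74.7 and 80.6 CPM (4.58 ± 0.14). Nefm, a neurofilament gene, fell from 37.9 and 36.3 CPM to 1.98 and 2.23 CPM (-4.13 ± 0.18).

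Axon guidance ligands and receptors moved both ways, 28 of 55 higher and 17 lower, with 23 gained and 15 lost. The ephrin receptor gene Epha1 rose from 1.47 and 1.03 CPM to 69.3 and 68.4 CPM (5.77 ± 0.18). Epha4, of the same family, fell from 173 and 165 CPM to 8.79 and 9.19 CPM (-4.23 ± 0.086). The guidance cue gene Ntn1 fell from 176 and 156 CPM to 5.6 and 6.29 CPM (-4.81 ± 0.091). Arhgef2, a guanine nucleotide exchange factor held on microtubules, rose from 40.8 and 41.7 CPM to 259 and 254 CPM (2.64 ± 0.067).

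In central carbon metabolism 11 of 30 glycolysis genes rose and 16 fell. Hk1, a hexokinase, which traps glucose in the cell, fell from 176 and 181 CPM to 35 and 35.7 CPM (-2.34 ± 0.060), as did the transporter Slc2a3 given above. Pkm, the pyruvate kinase gene, rose by little, from 2297 and 2169 CPM to 2583 and 2537 CPM (0.20 ± 0.032). Pdk1, the kinase that inhibits pyruvate dehydrogenase, went from 52.6 and 41.1 CPM to 214 and 218 CPM (2.2 ± 0.061). Slc16a3, a lactate exporter, rose from 33.4 and 25.1 CPM to 154 and 156 CPM (2.4 ± 0.077). Pdha1, a subunit of pyruvate dehydrogenase itself, fell from 448 and 432 CPM to 186 and 194 CPM (-1.21 ± 0.040). Of 28 genes of the tricarboxylic acid cycle 17 fell and 5 rose, with a median of -0.20. Idh2, which makes mitochondrial NADPH, went from 276 and 280.4 CPM to 76.3 and 73.6 CPM (-1.89 ± 0.048). Nuclear genes of the respiratory chain fell in 59 of 85 cases and rose in 5, with a median of -0.31. Cox6b1, a nuclear subunit of the same oxidase as COX1, fell from 307 and 288 CPM to 113 and 111 CPM (-1.41 ± 0.046).

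Of 26 tested genes of fatty acid oxidation 13 fell and 5 rose. Cpt1a, which commits fatty acids to mitochondrial import, fell from 174 and 173 CPM to 9.22 and 11 CPM (-4.11 ± 0.080). The carnitine carrier gene Slc25a20 fell from 137 and 119.7 CPM to 22.5 and 17 CPM (-2.69 ± 0.080). Cpt2, the enzyme on the inner membrane, rose from 19.7 and 16.2 CPM to 34.7 and 40.5 CPM (1.06 ± 0.11). In fatty acid synthesis and desaturation 16 of 28 rose and 6 fell. Acsl4, which activates polyunsaturated fatty acids, went from 44.7 and 39.8 CPM to 279 and 277 CPM (2.72 ± 0.058).

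Cholesterol synthesis genes rose in 24 of 25 cases, with a median of 1.04. SREBP2 is known to drive these genes together with NF-Y. Promoters were available for 17 of the 25 genes. The CCAAT box of NF-Y was present on either strand in 16 of 20 of their promoters (80.0%) and in 35.6% of all. The SREBP word TCACNCCAC was found on either strand in 1 of the 20 (5.0%), that of Hmgcs1, and in 1.06% of all. It is shown in capitals with 20 bases on each side.

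Hmgcs1: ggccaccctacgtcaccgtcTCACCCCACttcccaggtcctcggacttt

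The Hmgcs1 stretch is chr13:119690194-119690242 on the plus strand (GRCm38.p6), with the word starting 137 bases before the gene start. Hmgcs1, at the head of the pathway, rose from 377 and 403 CPM to 878 and 873 CPM (1.17 ± 0.036). Lss, the cyclase that forms lanosterol, rose from 58 and 59.3 CPM to 272 and 279 CPM (2.23 ± 0.053). The fall was of Ebp, a late isomerase, from 42.9 and 46.6 CPM to 12.2 and 10.3 CPM (-1.99 ± 0.11).

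The response to amino acid shortage runs from the kinase GCN2 to the factor ATF4, which binds a composite word of the form TGATGNAA. Of 30 list members 28 rose and 1 fell, with a median of 1.43, and the fall was of Asns. Promoters were available for 26 of the 30 genes. The word was present on either strand in 10 of their 31 promoters (32.3%) and in 2.01% of all promoters. Members were picked as known regulators and targets of this response, so that share is not a result of these data. Over all gained genes the share was 3.25%, and over all lost genes 2.41%. Asns, the member that fell, also holds the word, 23 bases before its gene start. The word is shown in capitals for 3 members that rose, with 20 bases on each side.

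Chac1: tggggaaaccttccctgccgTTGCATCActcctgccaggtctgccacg

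Herpud1: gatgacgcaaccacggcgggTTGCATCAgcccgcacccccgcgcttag

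Slc7a11: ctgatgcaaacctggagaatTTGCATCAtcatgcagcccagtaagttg

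The stretches (GRCm38.p6) are chr2:119351029-119351076 on the plus strand, chr8:94386297-94386344 on the plus strand and chr3:50443633-50443680 on the minus strand, and in each the word in capitals lies on the opposite strand. It starts 193, 112 and 47 bases before the gene start, and the Slc7a11 stretch holds the word again, in lower case, on its own strand. Chac1, which degrades glutathione, rose from 6.46 and 9.11 CPM to 134 and 121 CPM (4.03 ± 0.10). Herpud1, which serves protein degradation at the endoplasmic reticulum, went from 19.5 and 17.6 CPM to 77.8 and 75.9 CPM (2.05 ± 0.091). The cystine importer gene Slc7a11 rose from 2.94 and 2.5 CPM to 41.3 and 45.8 CPM (3.99 ± 0.17). Stc2, a secreted glycoprotein, reached 77.9 and 70.6 CPM from 4.26 and 3.67 CPM (4.22 ± 0.14). The lipoprotein receptor gene Vldlr reached 43.8 and 42.3 CPM from 2.64 and 4.55 CPM (3.58 ± 0.16). In the list of glutathione and oxidative stress genes 19 of 36 rose and 16 fell. Gss, which makes glutathione, fell from 112 CPM in both libraries to 23 and 22.9 CPM (-2.29 ± 0.074).

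Plasma membrane amino acid transporters rose in 19 of 28 tested cases and fell in 9. Slc38a2, which carries glutamine and other neutral amino acids, rose from 269.6 and 269.8 CPM to 851 and 817 CPM (1.63 ± 0.037). Slc7a7, an exchanger of cationic amino acids, went from 10.9 and 14.7 CPM to 139 and 135 CPM (3.42 ± 0.084). The glutamate transporter gene Slc1a3 rose from 5.44 and 6.32 CPM to 61.3 and 59 CPM (3.35 ± 0.13). Slc6a8, which carries creatine, fell from 173 and 163 CPM to 41.1 and 40.5 CPM (-2.04 ± 0.060), and the creatine kinase Ckb given above fell too.

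In serine synthesis and one-carbon metabolism 13 of 19 rose and 4 fell. Psph, the last enzyme of serine synthesis, rose from 54.4 and 56 CPM to 149.6 and 163 CPM (1.5 ± 0.066). Mthfd2, a mitochondrial folate enzyme, went from 100.9 and 112 CPM to 405 and 401 CPM (1.92 ± 0.046). Aldh1l2, also mitochondrial, rose from 8.23 and 8.22 CPM to 55.5 and 58 CPM (2.78 ± 0.15). Aldh1l1, its cytosolic counterpart, fell from 30.9 and 35.4 CPM to 4.22 and 4.74 CPM (-2.89 ± 0.15). Threonine is a known source of one-carbon units in mouse ES cells through the dehydrogenase Tdh, which fell from 745 and 781 CPM to 43.6 and 39.9 CPM (-4.19 ± 0.048). Gldc, of the glycine cleavage system downstream of Tdh, rose from 166 and 171 CPM to 382 and 362 CPM (1.14 ± 0.042). In the methionine cycle 7 of 21 rose and 10 fell. Bhmt2, a methyltransferase that makes methionine, fell from 13.5 and 12.6 CPM to no count (at least 47.6-fold lower). Cbs, the entry to transsulfuration, fell from 98.7 and 99.3 CPM to 22.7 and 23.1 CPM (-2.11 ± 0.078). The polyamine enzyme genes Odc1 (1.14 ± 0.039) and Srm (1.07 ± 0.046) rose.

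Lysosomal genes fell in 29 of 38 tested cases and rose in 8, with a median of -0.80. Lamp1, a lysosomal membrane protein, went from 595 and 555 CPM to 358 and 353 CPM (-0.70 ± 0.038). The protease gene Ctsc fell from 65.2 and 72.1 CPM to 9.39 and 8.52 CPM (-2.93 ± 0.11). The acid lipase gene Lipa rose from 1.76 and 2.35 CPM to 7.58 and 6.87 CPM (1.81 ± 0.28). Subunits of the V-ATPase, which acidifies lysosomes, fell in 15 of 21 cases and rose in 3. Of 37 autophagy genes 19 fell and 11 rose. Ulk1, the kinase that starts autophagy, fell from 417 and 430.0 CPM to 49.98 and 45.2 CPM (-3.15 ± 0.051). Mitf, of the MiT factors known to drive lysosomal genes, went from 81.5 and 87.5 CPM to 3.02 and 2.42 CPM (-4.94 ± 0.14). Tfeb fell from 32.6 and 32.3 CPM to 6.12 and 6.29 CPM (-2.39 ± 0.14). Tfe3, the third of these factors here, rose from 116 and 118 CPM to 232 CPM in both libraries (0.98 ± 0.048). Rab38, a trafficking GTPase of lysosome-related organelles, fell from 20.4 and 18.8 CPM to 1.81 and 0.87 CPM (-3.83 ± 0.22).

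Genes of protein synthesis mostly moved by small amounts. Of 20 aminoacyl-tRNA synthetases 16 rose and 2 fell, with a median of 0.45. Sars, which charges tRNA with serine, went from 288 and 309 CPM to 621 and 587 CPM (1.02 ± 0.041). Lars, for leucine, rose from 373 CPM in both libraries to 692 and 712 CPM (0.91 ± 0.038). Qars, for glutamine, fell from 447 and 467 CPM to 189.7 and 191 CPM (-1.26 ± 0.040). Ribosome biogenesis genes rose in 23 of 32 cases and fell in 5, with a median of 0.19. Cytosolic ribosomal protein genes fell in 30 of 88 cases and rose in 10. Many of these have processed pseudogenes, so their reads are uncertain. Eif2s2, a subunit of the initiation factor eIF2, fell from 747 and 733 CPM to 299 and 304 CPM (-1.3 ± 0.036). Xbp1, a factor of the unfolded protein response, rose from 44.4 and 48.5 CPM to 84.8 and 72.3 CPM (0.76 ± 0.073).

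Most genes of DNA replication and mitosis fell slightly. Of 34 DNA replication genes 22 fell and 3 rose, with a median of -0.21, and of 36 mitosis genes 22 fell and 7 rose, with a median of -0.15. These small medians depended on the processing. Under the alternatives they ran from -0.2256 to -0.1345 for replication and from -0.1771 to -0.0687 for mitosis. Orc1, of the origin recognition complex, fell from 192 and 177 CPM to 95.4 and 88.8 CPM (-1.0 ± 0.052). The helicase gene Mcm4 fell from 568 and 565 CPM to 376 and 381 CPM (-0.58 ± 0.036). In the list of homologous recombination and Fanconi genes 17 of 33 fell and 6 rose. Fancm, a translocase of the Fanconi pathway, went from 294 and 300.2 CPM to 79 and 81.5 CPM (-1.89 ± 0.054). Brca1, which promotes recombination, fell from 287 and 272 CPM to 129.8 and 126 CPM (-1.13 ± 0.045). Among regulators of the G1 phase 9 of 27 rose and 14 fell. The D-type cyclin gene Ccnd2 rose from 0.59 and 0.73 CPM to 15.6 and 15.7 CPM (4.53 ± 0.30). Cdkn1a, the p21 inhibitor, fell from 303 and 323 CPM to 77.5 and 75.7 CPM (-2.03 ± 0.051), while its relative Cdkn1c rose, as given above. Among 37 tested p53 targets and apoptosis regulators 20 rose and 13 fell. Hrk, which promotes cell death, rose from 1.62 and 1.91 CPM to 32.2 and 28.5 CPM (4.1 ± 0.21). Pmaip1, of the same BH3-only class, rose from 39.4 and 37.6 CPM to 201 and 210.1 CPM (2.42 ± 0.064).

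Chromatin lists moved both ways, as did all genes tested (35.3% higher and 35.3% lower). In the list of DNA methylation and demethylation, which holds Dnmt3a and Dnmt3b, 8 of 18 rose and 8 fell. Tet3, a demethylation enzyme, rose from 10.9 and 13.1 CPM to 48.3 and 50.2 CPM (2.04 ± 0.11). Dppa3, which shields DNA from methylation changes in the zygote, fell from 36.9 and 36.7 CPM to 6.55 and 7.16 CPM (-2.43 ± 0.13). Of 35 Polycomb subunits 12 rose and 16 fell, and 5.7% were gained and 11.4% lost, below the shares over all genes tested. Phc1, of the PRC1 complex, went from 303 and 288 CPM to 960.5 and 937 CPM (1.68 ± 0.037). Suz12, a core subunit of PRC2, fell from 609 and 593 CPM to 275 and 267 CPM (-1.15 ± 0.037). In the trithorax list 9 of 20 rose and 9 fell, and 10.0% were gained and 5.0% lost, also below the shares over all genes tested. Wdr5, a common subunit, fell from 573 and 546 CPM to 221 and 211 CPM (-1.37 ± 0.039). The H3K27 demethylase gene Kdm6b rose from 91.8 and 84.5 CPM to 240.3 and 215 CPM (1.37 ± 0.055).

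The libraries at 12 h and 24 h show levels on the way to 40 h, and they are given side by side because all times share the 0 h libraries. Tfcp2l1 stood at 437 and 446 CPM at 12 h and 108 and 111 CPM at 24 h, between its levels at 0 h and 40 h. Ctsc had 5.54 and 5.32 CPM at 12 h, below both 40 h libraries. Stra8 had 5.68 and 6.49 CPM at 12 h and 39 and 51.6 CPM at 24 h, so most of its rise came after 12 h. Kif1a had 1.62 and 2.45 CPM at 12 h and 4.2 and 5.4 CPM at 24 h, and most of its rise came after 24 h. Several genes passed through a level outside the range of both ends. Otx2, a formative factor, had 1.62 and 2.2 CPM at 0 h, 94.6 and 90.8 CPM at 24 h and 11.3 and 9.29 CPM at 40 h. Ccnd2 was highest at 12 h, with 43.9 and 41.3 CPM. Bmp4, which ended below its 0 h level, had 44.2 and 37.9 CPM at 12 h. Notch4 had 44.5 and 46.5 CPM at 12 h and also ended below 0 h. The serine protease gene Htra1 had 15.9 and 16.9 CPM at 0 h, 32.3 and 33.3 CPM at 12 h and 0.17 and 0.77 CPM at 40 h. For Bmp4, Notch4 and Htra1 both 24 h libraries were below both 0 h libraries.

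**Figure D4:**
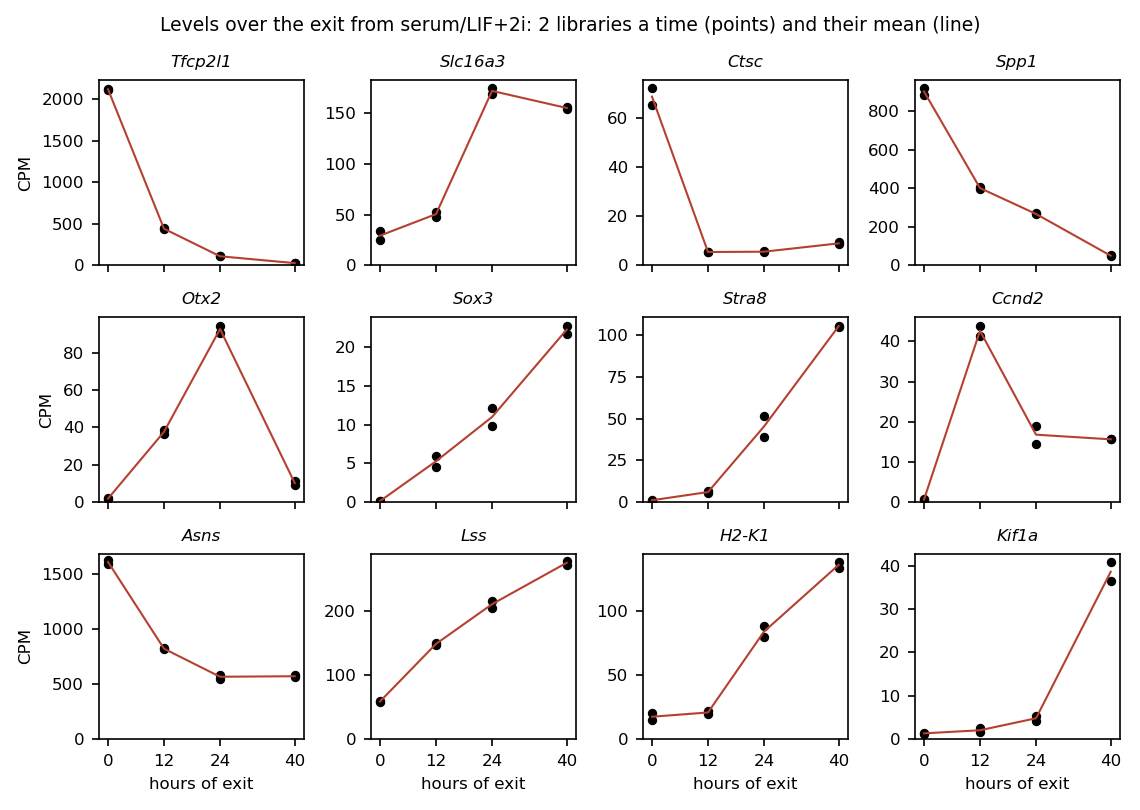
Level in CPM (y axis, from 0, a separate scale in each panel) of 12 genes at 0, 12, 24 and 40 h of exit from serum/LIF+2i (x axis), with a point for each of 2 libraries and a line through their means. Otx2 peaks at 24 h (94.6 and 90.8 CPM) and Ccnd2 at 12 h (43.9 and 41.3 CPM), Ctsc is lowest at 12 and 24 h, and Stra8 and Kif1a rise most after 12 h.

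After release from 2i/LIF, 68.8% of genes were called, 2214 at least 2-fold higher and 1993 at least 2-fold lower at 40 h. The difference between the net changes of the media was tested as an interaction in the same model. It was called and at least 2-fold for 803 genes (5.62%), 524 more positive from serum/LIF+2i (3.67%) and 279 more negative (1.95%). Of the 2402 gained genes, 262 had a more positive change (10.9%) and 60 a more negative one (2.5%) than from 2i/LIF. Of the 1810 lost genes, 96 were more negative (5.3%) and 74 more positive (4.1%). For 20 of the gained or lost genes with such a difference, the changes were called in opposite directions in the media. A difference can come from the level at 0 h as much as from that at 40 h, so both are given below.

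Genes with a more positive change from serum/LIF+2i included members of the retinoic acid, germline and amino acid response lists. Of 18 retinoic acid genes, 7 were more positive and 0 more negative, and Rarg went from 64.3 and 69 CPM to 320.2 and 326 CPM in 2i/LIF (difference 1.6 ± 0.084). Stra8 went from 22.2 and 19.9 CPM to 25.7 and 35.5 CPM in 2i/LIF, against 0.88 and 1.47 CPM to 105 and 106 CPM from serum/LIF+2i, a difference of 5.93 ± 0.30 on the log2 scale (adjusted p = 8.05e-20, edgeR). Of 30 amino acid response genes 7 were more positive and 0 more negative. The cystine importer gene Slc7a11 went from 4.14 and 3.95 CPM to 25.3 and 27.3 CPM in 2i/LIF, with a difference of 1.29 ± 0.33. Serpinh1 went from 161 and 174 CPM to 168 and 206 CPM in 2i/LIF, with a difference of 1.63 ± 0.084. Pkdcc, a secreted tyrosine kinase, had no count at 0 h in serum/LIF+2i and 23.3 and 21.3 CPM at 40 h, against 0.69 and 0.30 CPM at 0 h and 15.5 and 17.4 CPM at 40 h in 2i/LIF. Gfra1, a receptor for GDNF, also had no count and then 16 and 16.8 CPM, against 0.69 and 0.30 CPM at 0 h and 12.8 CPM in both libraries at 40 h in 2i/LIF. The fitted differences of Pkdcc and Gfra1 depend on the prior count.

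Genes with a more negative change included some that started higher in serum/LIF+2i. Dnmt3l, the cofactor of the de novo methyltransferases, had 184 and 153 CPM at 0 h and 587 and 596 CPM at 40 h in serum/LIF+2i. In 2i/LIF it went from 8.62 and 6.38 CPM to 251 and 307 CPM (difference -3.42 ± 0.24). Aire, which overlaps Dnmt3l on the opposite strand, fell from 14.8 and 10.4 CPM to 6.89 and 5.42 CPM in serum/LIF+2i and rose from 1.03 and 0.46 CPM to 10.4 and 10.5 CPM in 2i/LIF. The deubiquitinase gene Usp44 started at 8.82 and 7.64 CPM in serum/LIF+2i and 1.38 and 1.06 CPM in 2i/LIF, and both media ended between 62.0 and 64.1 CPM (difference -2.75 ± 0.33). The protease gene Prss50 ended at 22.7 and 19.9 CPM from serum/LIF+2i and 21.3 and 23.8 CPM from 2i/LIF, where it had no count at 0 h. Otx2 started at 1.62 and 2.2 CPM from serum/LIF+2i and 0.34 and 0.76 CPM from 2i/LIF. Its 40 h levels lay in the opposite order, with 64.8 and 60.1 CPM from 2i/LIF against 11.3 and 9.29 CPM from serum/LIF+2i (difference -4.32 ± 0.54, adjusted p = 6.68e-11, edgeR). In glycolysis 6 of 30 genes were more negative from serum/LIF+2i and 0 more positive. The lactate exporter gene Slc16a3 rose from 14.1 and 13.1 CPM to 276 and 249 CPM in 2i/LIF (difference -1.87 ± 0.14). Ifitm1 fell by more from serum/LIF+2i (difference -1.36 ± 0.13), as did Spp1 (-1.03 ± 0.065) and Htra1 (-3.44 ± 0.56).

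**Figure D5:**
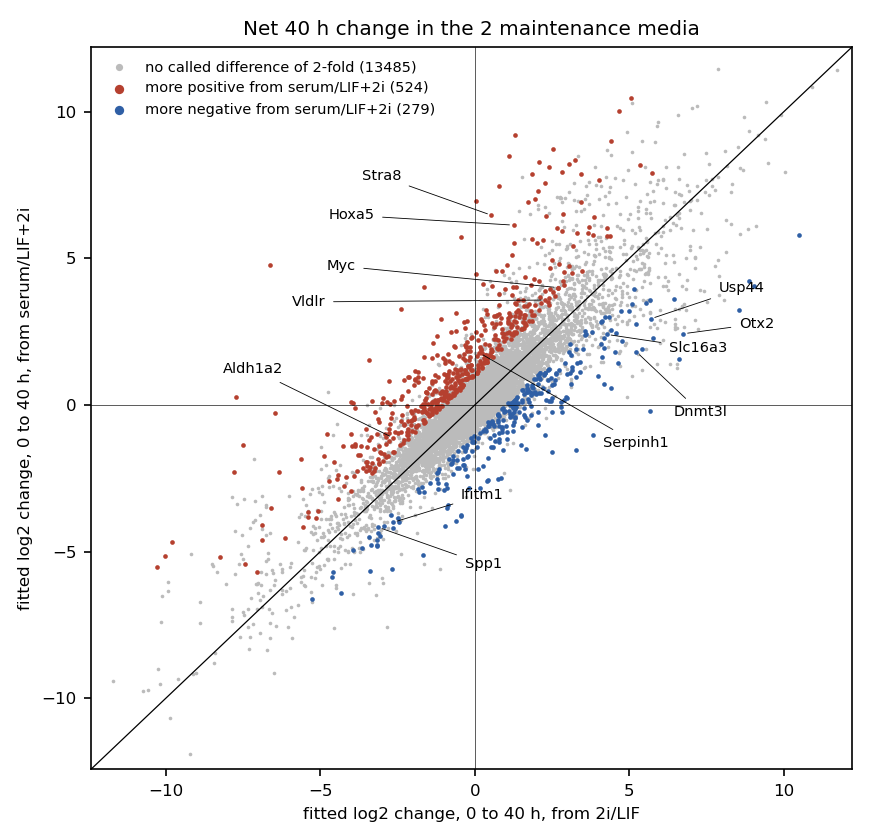
Fitted log2 change from 0 h to 40 h of each tested gene in cells from 2i/LIF (x axis) and from serum/LIF+2i (y axis), with the line of equal change. Red points are the 524 genes with a called difference of at least 2-fold that was more positive from serum/LIF+2i, such as Stra8 (5.93), and blue points the 279 that were more negative, such as Otx2 (-4.32); grey points are the other 13485 genes.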

How the data were processed

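RNA was extracted with TRIzol and made into TruSeq Stranded mRNA libraries, per the labels' protocols. The authors deposited 1 table of raw read counts per gene for 16 libraries in 8 groups of 2. The submitters' processing notes name fastp, STAR, featureCounts and mm10, and the strand setting is not given in the sources used here. From the deposited counts, genes were kept with edgeR's filterByExpr (minimum count 10, total 15), scaled by TMM and fitted with a term per group by the robust quasi-likelihood test in edgeR 4.0.16 (R 4.3.3), with 8 residual degrees of freedom and Benjamini-Hochberg adjustment over 14288 genes. Tests are two-sided. Gained and lost genes had an adjusted p under 0.05 and an absolute log2 change of at least 1, and the same rule was used for the difference between media. Genes at or under 3 counts in both libraries of a group are at the floor, and folds against it are lower bounds from 3 counts per library. A prior count of 2 was used only for the log2 CPM behind the correlation and the principal components. The fitted changes used edgeR's default prior count. Genes without a symbol (1049 in the table) were tested but put in no list.

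The groups are those of the sample titles. Replicate numbers paired nothing detectable, since same-numbered deviations at 0 h and 40 h correlated at 0.0075, and no block was used. Members and gene lists were chosen with earlier results of these data known, from general knowledge. Named genes were taken by rank: the 12 largest log2 rises and falls with at least 20 CPM in the higher group and more than 3 counts in every library, the 8 largest gains and losses in CPM, the 6 highest genes switched on or off, up to 4 called members of each list by size of change with at least 5 CPM, up to 2 against the list median, the member with the highest CPM, and the 8 largest differences between media each way with at least 10 CPM. Of the genes that meet the rule, 211 are named, and Pou5f1 and the cell type markers are added. Some items are not reported here. Gene positions and exon overlaps came from GENCODE M21 and promoters from RefSeq, both on GRCm38.p6. In simulated counts for 14288 genes, only genes planted with a change at 40 h differed between groups. Of these, 84 of 100 planted at a log2 change of 1 and 96 of 100 at 2 were recovered in the net change. There 17 unchanged genes were also called. Most genes changed in the data, and the simulation does not cover that setting. DESeq2 1.42.0, other scalings, filters and left-out libraries were tried as alternatives.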

Additional observations from a re-analysis of the deposited data

Results flagged for a closer look

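The difference between media in the net change was the only property that put results here: 803 genes had a called difference of at least 2-fold (edgeR's quasi-likelihood test of the interaction, adjusted p under 0.05), and 52 of the genes named above were among them. Values are log2 differences, the change from serum/LIF+2i minus the change from 2i/LIF, so that a positive value means a more positive change from serum/LIF+2i. No group had 4 or more libraries, so single libraries were not screened for distance from their group. In transcription factors and regulators of chromatin the differences were positive for Gbx2 (1.71), Vrtn (2.83), Zfp467 (3.64), Tfap2c (1.28), Cdx1 (4.76) and Hoxa5 (4.87), and negative for Esrrb (-1.26), Utf1 (-1.33), Otx2 (-4.32), Dnmt3l (-3.42), Aire (-4.84), Sox1 (-1.65), Pou3f2 (-3.31), Tead4 (-1.23) and Tfap2a (-1.62). In retinoid and germline genes they were positive for Stra8 (5.93), Rarg (1.60), Crabp2 (1.77), Aldh1a2 (1.51) and Taf7l (3.66). In the Zscan4 family they were positive for Zscan4c (7.89), Zscan4d (3.12), Zscan4a (2.78) and Zscan4e (4.13). In signalling genes they were positive for Cntfr (2.19), Dusp6 (1.48), Myc (1.30), Lefty1 (2.17), Igfbp3 (1.74), Pkdcc (5.44), Gfra1 (5.36), Epha1 (1.39) and Arhgef2 (1.05). In genes of matrix, junctions, secretion and the cytoskeleton they were positive for Serpinf1 (2.35), Gjb5 (1.38), Fbn2 (2.21), Serpinh1 (1.63) and Ina (1.11), and negative for Spp1 (-1.03) and Htra1 (-3.44). In metabolic, amino acid response and cell cycle genes they were positive for Aldh1l2 (1.16), Slc7a11 (1.29), Stc2 (1.36), Vldlr (1.30), Cdkn1c (2.2) and Ccnd2 (1.65), and negative for Slc16a3 (-1.87), Pmaip1 (-1.17) and Usp44 (-2.75). In the remaining named genes they were negative for Lrrc34 (-1.36), Ifitm1 (-1.36) and Prss50 (-4.68). The fitted differences of Vrtn, Zfp467, Hoxa5, Crabp2, Taf7l, Prss50, Zscan4c, Zscan4d, Zscan4e, Pkdcc and Gfra1 depend on the prior count, since 0 h libraries of 1 or both media held few or no counts of them.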

How the results depend on the processing

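The counts of genes called for the net change, 10080 in all, stayed within 1.5 times of the reported value under each alternative test, scaling, filter and left-out library. Leaving out 1 of the 4 libraries at a time gave 9274 to 9392 called genes, 4650 to 4748 higher, 4624 to 4670 lower, 2397 to 2465 gained and 1790 to 1818 lost. Each arm with 1 library left was assumed to vary like the other groups. The difference between media was called for 704 to 811 genes when 1 of 8 libraries was left out, for 535 with DESeq2's Wald test, and for 3940 with no minimum size. Genes tested fell to 10785 with a mean of at least 5 CPM required, and that filter left 1149 gained and 1148 lost genes, with no excess of gains, and 461 with a difference between media. With a floor of 0 counts 86 genes were switched on and 19 off, and with a floor of 10 counts 869 and 249. Leaving out 1 library, chosen as an alternative after seeing the data, gave 362 to 469 switched on and 93 to 122 off. With the replicate block 10080 genes were called, 2393 gained and 1809 lost, and 794 differed between media, so the block moved no count by 1.5 times. Scaling by library size alone raised the median log2 change over all genes from -0.0032 to 0.075, and under it Pou5f1 had a log2 change of 0.0131 (adjusted p = 0.749, edgeR) in place of -0.065, neither called. Of 2529 values of named genes under alternatives that was the only change of sign, and none of the 420 list medians recomputed changed sign, although 110 of them moved by more than the spread allowed. Low counts limit genes near the floor, and 2 libraries per group limit every standard error.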

Other observations

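Lists whose counts were not given above, although some of their members were named, gave the following values, read against 35.3% higher and 35.3% lower over all genes tested. Subunits of the proteasome, which degrades ubiquitin-tagged proteins, were higher in 7 of 37 cases and lower in 13, and mitochondrial ribosomal proteins in 16 of 76 and 22. Splicing factors were higher in 26 of 79 cases and lower in 29. Enzymes of nucleotide synthesis were higher in 10 of 28 cases and lower in 15. Chaperones of the endoplasmic reticulum rose in 15 of 28 cases and fell in 7, while those of the cytosol rose in 9 of 30 and fell in 14. Subunits of the BAF and NuRD remodelling complexes rose in 18 of 35 cases and fell in 9. Of 15 tested histone genes, of 94 in the table, 6 rose and 0 fell. Libraries selected on poly(A) capture few histone transcripts, which mostly lack a tail. Zinc finger genes named Zfp were higher in 100 of 362 cases and lower in 140, with 27 gained and 30 lost.

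Families of the cell surface and the cytoskeleton held larger changes. Of 250 tested solute carriers 99 rose and 96 fell, with 62 gained and 49 lost. Protocadherins rose in 10 of 22 tested cases, of 70 in the table, and fell in 3. Claudins of tight junctions rose in 5 of 7 and fell in 1. Myosins fell in 20 of 35 cases and rose in 8. Intermediate filament genes fell in 9 of 16 and rose in 3. Serpins, a family of protease inhibitors, fell in 11 of 18 tested cases, of 65 in the table, and rose in 5. Tudor and Piwi genes, which act against transposons in germ cells, rose in 6 of 8 and fell in 1. Glutathione S-transferases rose in 6 of 19 cases and fell in 9, and aldehyde dehydrogenases in 7 of 17 and 9.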
